A study of Homo sapiens with 34 samples.

Results

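The genes described here are the replication-dependent histone genes, taken as the rows of a count table whose symbol begins with HIST1H, HIST2H, HIST3H or HIST4H and that hold at least 34 reads summed over all libraries. This rule kept 58 of 73 rows with these prefixes, out of 26336 genes in the table. RNA was sequenced after poly(A) selection from 34 libraries of 4 human prostate cell lines in 17 groups, to compare growth on plastic with growth on ACP (amorphous calcium phosphate), which coats the dish with bone-like mineral, with and without androgen. RWPE is a non-tumorigenic prostate epithelial line, LNCaP comes from a lymph node metastasis, and VCaP and MDAPCa2a come from bone metastases. There were 2 libraries a group, apart from 3 for RWPE ACP androgen and 1 for VCaP plastic stripped.

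The media are called control, stripped and androgen here. LNCaP and VCaP grew in media with 10% fetal bovine serum and MDAPCa2a in medium with 20%, while RWPE grew in a keratinocyte medium with growth factor and pituitary extract. In the stripped medium the serum had been treated with charcoal and dextran, which removes steroids, and the androgen medium was stripped medium with an androgen added. The labels give the androgen as DHT in the sample titles and as testosterone elsewhere, at 100 mM, and which of these was used is not settled here. RWPE had plastic control, ACP control and ACP androgen groups, LNCaP and VCaP had plastic control, plastic stripped, ACP control, ACP stripped and ACP androgen groups, and MDAPCa2a had all of these except ACP control. All groups were labelled day 4 apart from the plastic controls, which were labelled as continuous culture although the protocol describes a 4 day culture for them too. MDAPCa2a plastic was coated with a protein mix that was not used on ACP. Each line stands for 1 source of cells, and nothing in the labels says that the libraries of a group came from separate cultures, so p-values measure the spread between these libraries, which may be technical.

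DNA is wound around nucleosome cores of H2A, H2B, H3 and H4, and the linker histone H1 binds where DNA enters and leaves. The genes in this set are clustered and are transcribed mainly in S phase to supply histones for newly made DNA. Most of their mRNAs carry no poly(A) tail: the message ends just after a conserved stem-loop that is bound by the stem-loop binding protein SLBP and cut with the help of the U7 small nuclear RNA. Several of these genes can also give longer polyadenylated mRNAs that are cut at a downstream site, mostly in cells that leave the cell cycle, and such transcripts are known for HIST1H1C, HIST1H2AC, HIST1H2BC, HIST1H2BD, HIST1H2BK and HIST2H2BE. A poly(A) selected library therefore reads the polyadenylated forms and whatever tailless RNA is carried through the selection, not the whole histone message.

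The stem-loop is printed first for some of the members whose levels the results turn on, since it marks where the tailless message ends. It was sought by the conserved bases of its stem and loop, a pattern of 16 bases, within 100 bases after the stop codon of each GENCODE 29 coding transcript on GRCh38. A match was present in 25 members and in 32 of 18236 other coding genes (0.175%), and 13 members had the letters printed in capitals for HIST2H2BE. Of the 58 members, 56 had a coding transcript annotated, and HIST2H2BA and HIST2H2BC had none. In 27 members no base was annotated after the stop codon in any transcript, so nothing could be read there. HIST1H1C and HIST1H2BK are among these, and no stem-loop is printed for them. In the lines below the 16 capitals are the match and 5 bases are shown on either side, 5′ to 3′ on the strand of the gene.
HIST2H2BE, chr1:149886183-149886208, minus strand: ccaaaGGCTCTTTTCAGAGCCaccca
HIST1H2AC, chr6:26124664-26124689, plus strand: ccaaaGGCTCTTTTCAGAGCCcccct
HIST1H2BC, chr6:26123467-26123492, minus strand: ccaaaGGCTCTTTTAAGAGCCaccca
HIST1H2BD, chr6:26158582-26158607, plus strand: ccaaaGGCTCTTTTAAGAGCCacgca
HIST3H2A, chr1:228457364-228457389, minus strand: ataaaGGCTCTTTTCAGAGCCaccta
HIST1H2AE, chr6:26217412-26217437, plus strand: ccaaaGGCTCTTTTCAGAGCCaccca
HIST1H3H, chr6:27810511-27810536, plus strand: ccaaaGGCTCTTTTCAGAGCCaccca
HIST1H4H, chr6:26285126-26285151, minus strand: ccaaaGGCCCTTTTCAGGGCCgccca

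The annotated transcripts differ in how far they run past this element. That of HIST2H2BE goes on for 1729 bases after the stem-loop and has the hexamer AATAAA, a polyadenylation signal, ending 18 bases before its end. The HIST1H2AC transcript runs 1114 bases past it, that of HIST1H3H 769, and the longer of the HIST1H4H transcripts 630, each with 2 such hexamers. HIST3H2A runs on for 390 bases and HIST1H2AE for 51, neither with the hexamer. For HIST1H2BC and HIST1H2BD, the shorter annotated transcript, of 571 and 496 bases, holds the stem-loop, while the longer, of 659 and 789 bases, lacks it in the 100 base window.

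Promoters are shown for 4 members that rose with androgen in VCaP, so that a reader can set their letters beside their values. All 58 members matched a RefSeq gene and 51 had a promoter in the RefSeq table (GRCh38.p14). Each line is the 250 bases before the annotated start, with matches on either strand in capitals to the octamer ATTTGCAT, to CCAAT and to TATAAA. Matches on the other strand read ATGCAAAT, ATTGG and TTTATA, and a TTTATA that overlaps a TATAAA reads TTTATAAA.
HIST1H1C, chr6:26056471-26056720, minus strand: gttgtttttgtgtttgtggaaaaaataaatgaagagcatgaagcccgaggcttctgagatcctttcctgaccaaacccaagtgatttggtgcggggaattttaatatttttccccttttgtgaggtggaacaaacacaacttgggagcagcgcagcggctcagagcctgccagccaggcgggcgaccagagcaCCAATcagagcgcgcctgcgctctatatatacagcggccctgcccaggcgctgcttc
HIST1H2BK, chr6:27146859-27147108, minus strand: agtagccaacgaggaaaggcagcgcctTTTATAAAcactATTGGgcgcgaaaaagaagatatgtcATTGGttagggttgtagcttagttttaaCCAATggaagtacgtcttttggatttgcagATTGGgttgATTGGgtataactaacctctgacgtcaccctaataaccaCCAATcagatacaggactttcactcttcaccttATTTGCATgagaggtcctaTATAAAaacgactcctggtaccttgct
HIST1H2BJ, chr6:27132796-27133045, minus strand: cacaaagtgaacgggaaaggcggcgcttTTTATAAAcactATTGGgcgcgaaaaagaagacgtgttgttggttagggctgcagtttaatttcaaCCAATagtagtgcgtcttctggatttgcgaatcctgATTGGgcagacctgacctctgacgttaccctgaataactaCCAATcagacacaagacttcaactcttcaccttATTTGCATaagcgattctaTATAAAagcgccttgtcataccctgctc
HIST2H2AC, chr1:149886668-149886917, plus strand: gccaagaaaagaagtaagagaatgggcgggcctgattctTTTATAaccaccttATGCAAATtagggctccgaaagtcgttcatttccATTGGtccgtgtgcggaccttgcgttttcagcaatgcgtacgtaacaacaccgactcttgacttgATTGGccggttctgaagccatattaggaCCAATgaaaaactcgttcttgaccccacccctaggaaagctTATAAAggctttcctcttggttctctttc

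The octamer stood in 23 of 51 member promoters and in 1.63% of 35116 promoters in all. By family it was in 10 of 13 H2A and 12 of 16 H2B promoters, in 1 of 9 for H3, and in 0 of 5 for H1 and 0 of 8 for H4. CCAAT was in 45 of 51 against 32.0% of all promoters, and TATAAA in 33 of 51 against 10.7%. H2A and H2B genes that lie head to head share part of these windows, as HIST2H2AC does with HIST2H2BE, so the promoters are not independent, and a match is a run of letters and not a shown binding site.

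By family the 58 members were 5 of H1, 14 of H2A, 18 of H2B, 11 of H3 and 10 of H4, with 48 in the HIST1 cluster on chromosome 6. The H2B members include HIST2H2BA and HIST2H2BC, which have no coding transcript annotated. The rows left out hold few or no reads: 9 of 15 had 0 reads, and the highest were HIST1H4K with 31 and HIST1H2BI with 29, while HIST1H1T and HIST1H2BB came in with 34 each. Some of the empty rows are near-identical copies. HIST2H3A, HIST2H3C and HIST2H2AA3 share 100% of their 50-base windows with another histone gene, as does HIST1H4K, so reads from them may not have been assigned to a gene. Among members, 86.3% of the windows of HIST1H2AM, 83.7% of HIST1H2AJ, 81.2% of HIST1H4J, 80.4% of HIST2H3D, 63.5% of HIST2H2BA, 62.3% of HIST1H2AI and 40.9% of HIST1H3J are shared in this way, and their values are uncertain. For HIST1H2BK the share is 22.6%. Whether reads were counted by strand is not given in the sources used here, so reads of overlapping neighbours cannot be told apart.

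Reads were concentrated on a few genes. Members drew 426706 reads in all, and the 6 genes with known polyadenylated transcripts drew 338522 of these, or 79.3%. H2B members held 47.0% of the member reads, H1 members 26.9%, H2A 20.8%, H4 2.88% and H3 2.48%. HIST1H1C, a linker histone, and HIST1H2BK, an H2B, held 26.3% and 25.0%, HIST2H2BE, another H2B, 15.4%, HIST3H2A 9.70% and HIST1H2AC 8.18%. These are shares of reads, which also rise with transcript length, and not of molecules. A read was present in every library for 23 members, and 5 members had a read in fewer than 17 libraries.

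**Figure D1:**
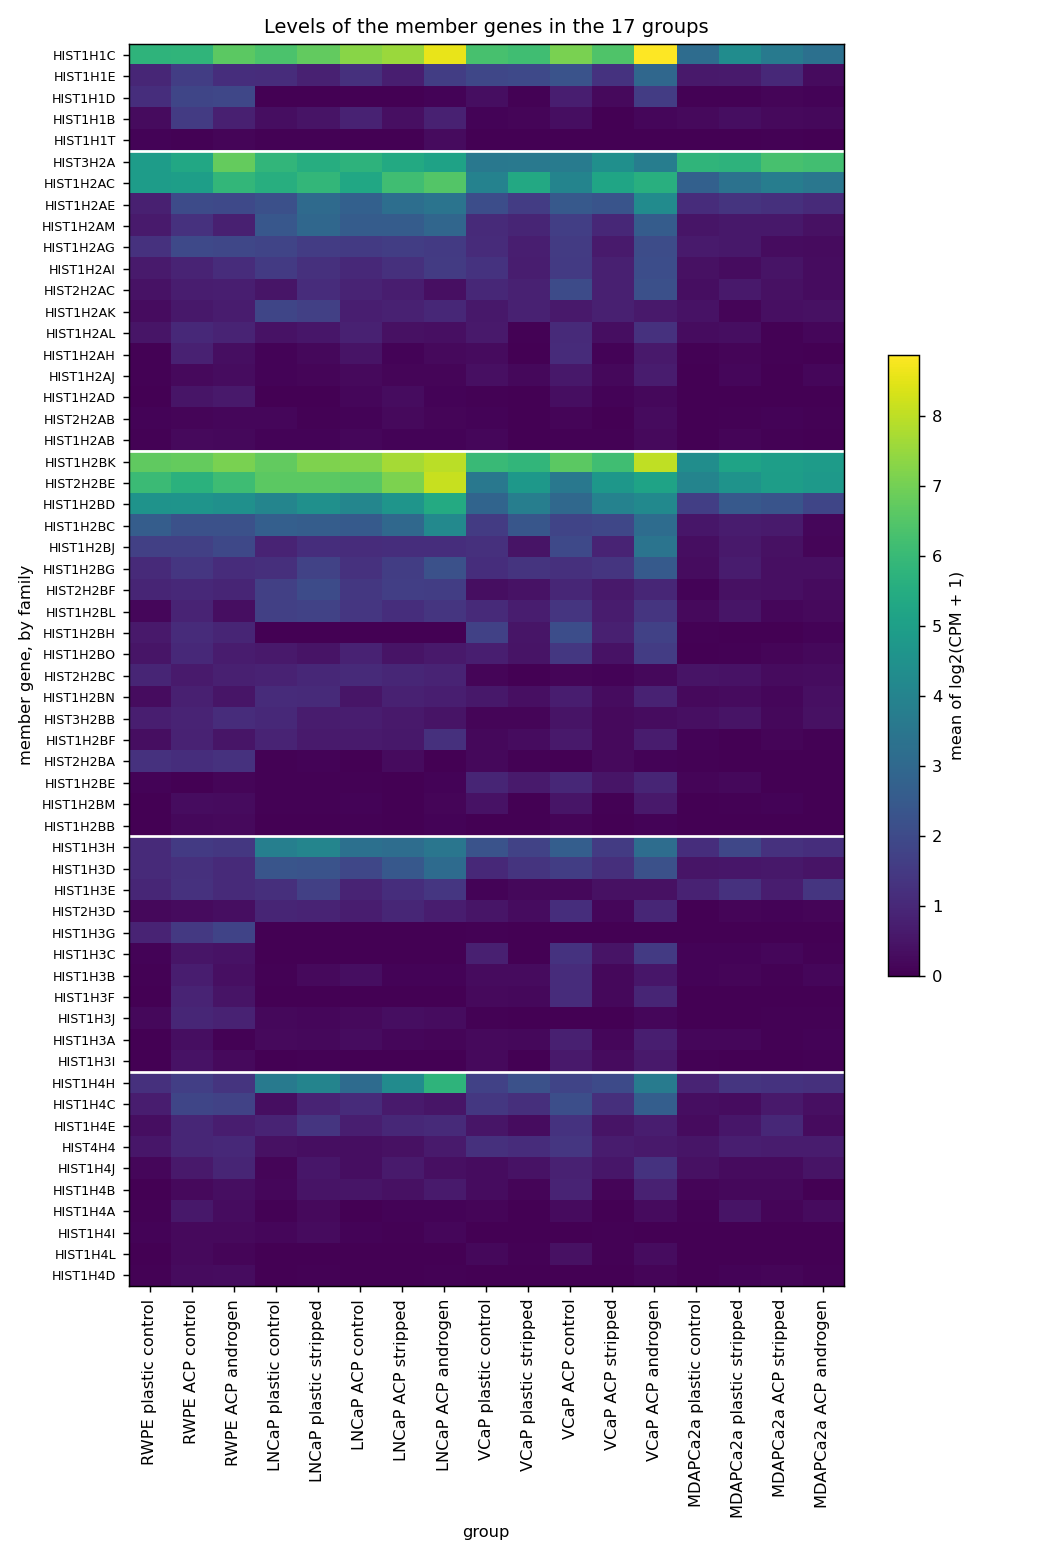
Mean of log2(CPM + 1), where CPM is reads per M reads of the library (M, mega), for the 58 member genes (rows, by family H1, H2A, H2B, H3 and H4 from top to bottom, separated by white lines) in the 17 groups (columns). Colours are to be read along a row. A few rows in each family carry the visible signal. The MDAPCa2a columns are dark for HIST1H1C, HIST1H2BK and HIST1H2BD but not for HIST3H2A, while HIST2H2BE is low in VCaP as well as in MDAPCa2a.

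Totals ran from 15.4 to 44.8 M reads, with 34.9 to 44.8 M in the 8 plastic control libraries and 15.4 to 37.0 M in the other 26. The plastic controls also stood apart in carrying 1.41 to 2.84 CPM of the liver transcript FGG, against a read in 1 of the other libraries, so any difference from a plastic control cannot be told apart from that set of libraries. Line markers fitted the labels in RWPE, with the basal keratin KRT5 at 2348 to 10153 CPM against at most 13.0 in the other lines, and in VCaP, with ERG at 126 to 882 CPM against at most 2.32. KLK3, a luminal marker, was at 124 to 3553 CPM in LNCaP, 36.1 to 3446 in VCaP, 5349 to 11697 in MDAPCa2a and at most 19.1 in RWPE. Fewer cells in S phase and less RNA per cell cannot be told apart in such bulk samples.

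Carry-over of tailless RNA was read from RPPH1, the RNA component of RNase P, and RMRP, that of RNase MRP, which have no poly(A) tail. In the plastic controls RPPH1 was between 0.212 and 1.98 CPM except in MDAPCa2a replicate 1, at 32.3 CPM, where replicate 2 had 0.414. Elsewhere it went up to 206 CPM, in RWPE ACP androgen replicate 1, where replicates 2 and 3 had 3.82 and 2.80 CPM. In 11 of 16 groups with replicates, the library with the most RPPH1 also had the higher sum of the members outside the polyadenylated 6 and outside HIST3H2A. In RWPE ACP androgen this sum was 77.8, 25.4 and 37.2 CPM in replicates 1 to 3. With so few libraries a group, such a match can also arise by chance, and the count was not tested. It includes VCaP ACP stripped, where RPPH1 differed by 1.05 times. In LNCaP plastic control and plastic stripped, where it differed by 3.36 and 2.33 times, the match was absent. The sum outside the polyadenylated 6 need not be of tailless RNA alone. HIST1H3H and HIST1H4H, which are in it, have annotated transcripts with AATAAA past the stem-loop. In LNCaP ACP androgen replicate 1, HIST1H4H was at 89.6 CPM within a sum of 150 CPM. The polyadenylated 6 were also highest in that library of the group. The part of tailless carry-over in the member values was not tested.

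**Figure D2:**
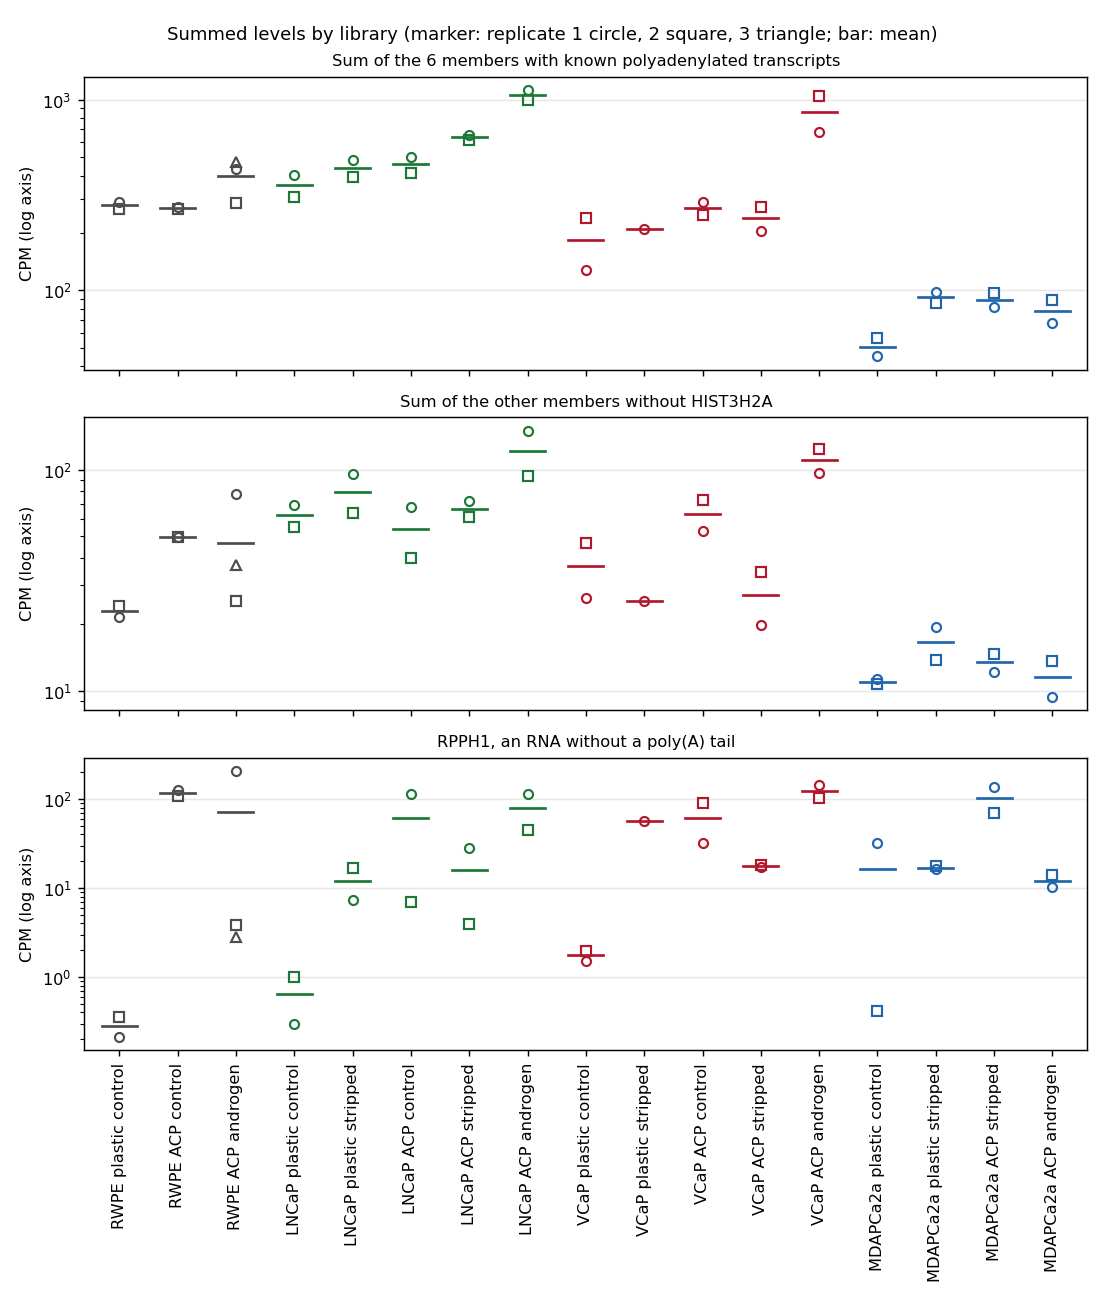
Sums in CPM on log axes for each library, by group: the 6 members with known polyadenylated transcripts (top), the other members without HIST3H2A (middle) and RPPH1 (bottom). Points are libraries, with a circle, square and triangle for replicates 1, 2 and 3, and bars are group means. The top panel is highest for LNCaP and VCaP with androgen on ACP and lowest for MDAPCa2a, while RPPH1 varies between libraries of a group by up to 78.0 times.

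Added over the 58 members, the level ran from 106 CPM in MDAPCa2a plastic control replicate 1 to 1302 CPM in LNCaP ACP androgen replicate 1, with a median of 356 CPM over the libraries. The polyadenylated 6 made up between 40.1% and 88.7% of it. In MDAPCa2a they summed to 45.0 to 97.5 CPM over the 8 libraries, below every library of the other lines, whose lowest was VCaP plastic control replicate 1 at 128 CPM. This order did not hold for HIST2H2BE alone, at 13.9 to 33.3 CPM in MDAPCa2a and 8.74 to 39.6 CPM in VCaP. HIST3H2A, an H2A gene on chromosome 1, did not share it either. It was at 47.8 to 110 CPM in MDAPCa2a, above all VCaP libraries (8.48 to 26.3 CPM), so that it exceeded the sum of all other members outside the polyadenylated 6 there.

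The count of members that rose with androgen on ACP was highest in VCaP, but the lines are not alike in what could pass. Of all genes 17.5% passed in VCaP, 7.73% in LNCaP and 0% in MDAPCa2a. In RWPE, set against control medium, 19.1% did, and the number of members tested was not the same in each line. The sum of the polyadenylated 6 was 206 and 272 CPM in the VCaP stripped libraries and 679 and 1051 CPM in the androgen libraries, with no overlap. HIST1H1C was at 61.5 and 118 CPM in stripped serum and at 387 and 569 CPM with androgen, a log2 fold change of 2.42 ± 0.41 (SE; edgeR quasi-likelihood test, adjusted p = 0.00528). HIST1H2BK, which encodes H2B, stood at 67.2 and 72.0 CPM and rose to 183 and 374 CPM (2.00 ± 0.39, adjusted p = 0.00899). Both rises were larger than the spread between replicates, although the 2 androgen libraries themselves differed for HIST1H2BK by more than the stripped ones did.

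Of the 44 members that passed the filter on low counts in VCaP, 18 rose and 0 fell, against 17.5% of the 15614 genes tested that changed in either direction and 8.67% that rose. The filter keeps a gene that is high in 1 group alone, so this count is a description of the members that passed and not of all 58. Their median log2 fold change was 1.96, beside -0.03 over all genes tested. Members that rose were 2 of 3 tested for H1, 6 of 11 for H2A, 6 of 15 for H2B, 1 of 8 for H3 and 3 of 7 for H4, so the rise was not limited to 1 family.

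HIST1H2BJ, another H2B gene, had the largest log2 fold change among them, from 0.585 and 1.11 CPM to 7.10 and 13.3 CPM (3.57 ± 0.67, edgeR adjusted p = 0.00801). The linker histone HIST1H1D went from 0.184 ± 0.26 CPM to 2.03 ± 0.54 CPM (SD, n = 2 libraries each; 3.36 ± 1.02, edgeR adjusted p = 0.0482). HIST1H2AE, an H2A gene whose annotated transcript ends shortly after the stem-loop, was at 3.46 and 4.39 CPM in stripped serum and 18.0 and 18.5 CPM with androgen (2.22 ± 0.37, edgeR adjusted p = 0.00493). Its androgen libraries were nearly alike and far above both stripped ones; it was singled out after its values were seen. HIST1H2AG, also an H2A gene, went from 0.195 and 1.02 CPM to 2.90 and 3.42 CPM. For H3 the one call was HIST1H3H, from 1.76 and 2.09 CPM to 6.49 and 9.94 CPM, and for H4 HIST1H4H went from 3.41 and 2.58 CPM to 10.9 and 13.1 CPM and HIST1H4C from 0.975 and 1.68 CPM to 4.07 and 6.75 CPM. Their log2 fold changes were 2.09 ± 0.47, 2.01 ± 0.50 and 2.02 ± 0.49, with edgeR adjusted p of 0.0158, 0.0231 and 0.0222. The linker histone HIST1H1E, at 0.439 and 3.24 CPM and then 8.48 and 5.52 CPM, and the H3 gene HIST1H3D, at 1.41 and 1.19 CPM and then 2.60 and 4.82 CPM, did not pass (adjusted p = 0.112 and 0.0507) although their libraries did not overlap.

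The other members with known polyadenylated transcripts moved less in VCaP. HIST1H2BC rose from 2.75 ± 0.51 to 7.75 ± 0.80 CPM (SD, n = 2 libraries each; edgeR adjusted p = 0.0191). HIST2H2BE, HIST1H2AC and HIST1H2BD did not pass, with log2 differences of 0.42 ± 0.32, 0.40 ± 0.25 and 0.29 ± 0.28, and their stripped and androgen libraries overlapped. HIST3H2A was at 26.3 and 15.4 CPM in stripped serum and 12.2 and 13.1 CPM with androgen, lower in both androgen libraries without passing (adjusted p = 0.191). RPPH1 was at 17.3 and 18.1 CPM in stripped serum and 142 and 103 CPM with androgen, and 3 of 4 tailless RNAs tested rose (RPPH1 2.79 ± 0.41, edgeR adjusted p = 0.00321). Their part in the rise of the members was not tested.

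Single libraries decided the size of the VCaP count. It was 2 without ACP stripped replicate 1 and 2 without ACP androgen replicate 2, and 9 without ACP androgen replicate 1 and 17 without ACP stripped replicate 2. HIST1H1C and HIST1H2AE passed in all 4 of these fits, with log2 fold changes of 2.07 to 2.96 and 2.10 to 2.40. Where leaving out a library left 1 in a group, that library was assumed to vary like the other groups.

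**Figure D3:**
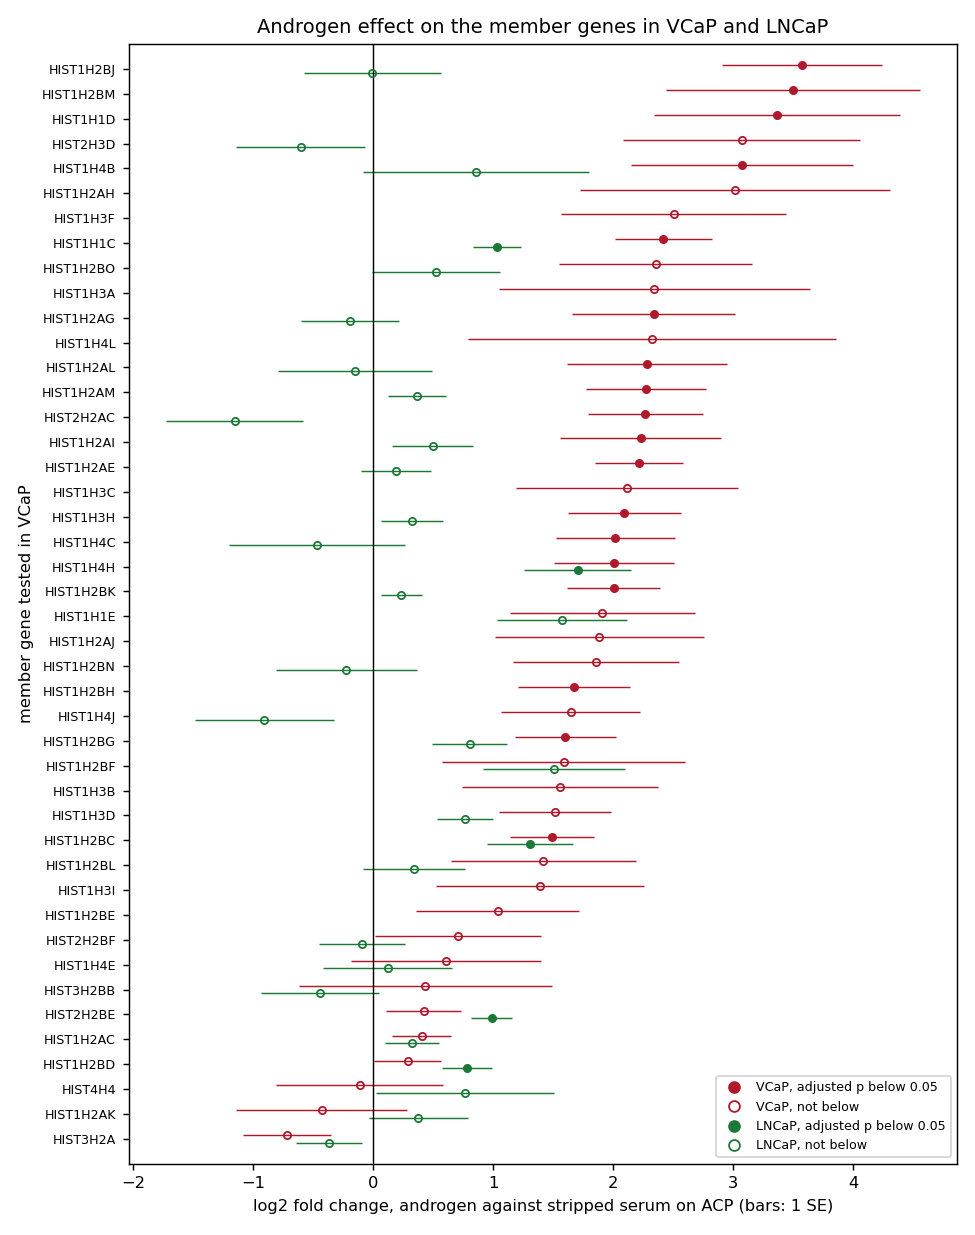
Log2 fold change of androgen over stripped serum on ACP (x axis, bars are 1 SE) for the 44 members tested in VCaP (y axis), in VCaP (red) and, where tested, in LNCaP (green). Filled points passed an adjusted p of 0.05. In VCaP 18 members passed to the right of 0, and in LNCaP 5 did, with HIST1H1C, HIST1H2BC and HIST1H4H filled in both.

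LNCaP answered androgen with a shorter list in which the polyadenylated 6 predominated. Their sum was 655 and 616 CPM in stripped serum and 1118 and 1002 CPM with androgen, again with no overlap. Of 35 members tested 5 rose and 0 fell, against 7.73% of 14656 genes in either direction. The median over the members tested was 0.34, beside -0.01 over all genes. HIST2H2BE went from 123 and 154 CPM to 299 and 258 CPM (0.99 ± 0.17, edgeR adjusted p = 0.00745). HIST1H1C went from 199 and 176 CPM to 404 and 370 CPM (1.03 ± 0.20, edgeR adjusted p = 0.0127). In the fit of all lines HIST1H1C did not pass (edgeR adjusted p = 0.0799).

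The replication-coupled H4 gene HIST1H4H had the largest log2 fold change in LNCaP, 1.70 ± 0.44 (edgeR adjusted p = 0.0402), from 20.9 and 16.1 CPM to 89.6 and 31.5 CPM. Its androgen libraries were far apart but both lay above the stripped ones, and without ACP androgen replicate 1 the log2 fold change was 0.74 and did not pass. RPPH1 was at 27.8 and 3.96 CPM in stripped serum and 114 and 44.6 CPM with androgen, highest in that same library. This difference did not pass (edgeR adjusted p = 0.219), and its part in the member values was not tested. HIST1H2BC rose from 7.15 and 6.87 CPM to 21.3 and 13.7 CPM (edgeR adjusted p = 0.0498). HIST1H2BD rose from 22.2 and 25.9 CPM to 38.6 and 45.0 CPM (edgeR adjusted p = 0.0446). It did not pass with a replicate block or in the fit of all lines. HIST1H2BK and HIST1H2AC did not pass, at 0.23 ± 0.17 and 0.32 ± 0.22 on the log2 scale, and neither did HIST1H1E (0.485 and 0.876 CPM, then 2.38 and 1.70 CPM) or HIST1H3D (4.11 and 4.80 CPM, then 7.46 and 7.83 CPM). Without LNCaP ACP stripped replicate 1 or ACP androgen replicate 1 the count was 0, without ACP stripped replicate 2 it was 1, and without ACP androgen replicate 2 it was 4.

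**Figure D4:**
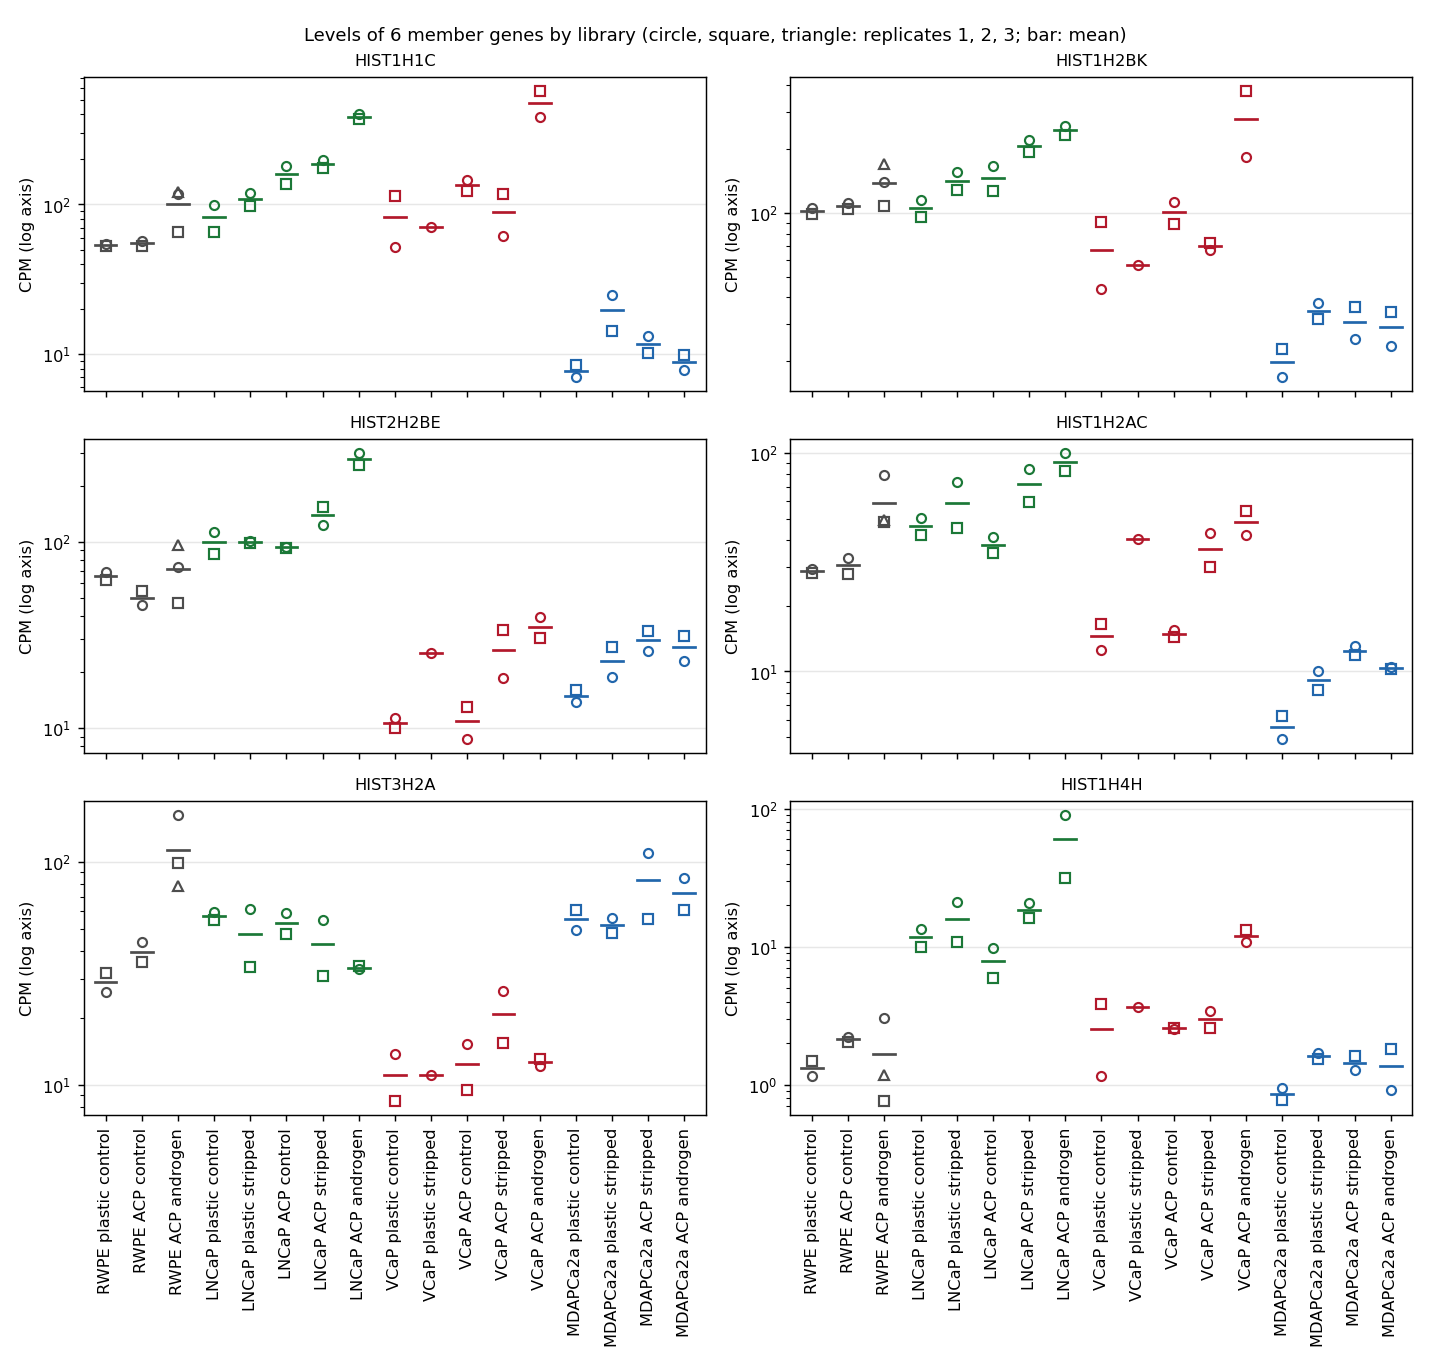
CPM on log axes of HIST1H1C, HIST1H2BK, HIST2H2BE, HIST1H2AC, HIST3H2A and HIST1H4H in each library, by group. Points are libraries (circle, square and triangle for replicates 1, 2 and 3) and bars are group means. HIST1H1C is highest with androgen in LNCaP and VCaP, HIST2H2BE is highest with androgen in LNCaP, and HIST3H2A stays low in VCaP.

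The difference between the androgen effects of VCaP and LNCaP was tested itself, in a fit of all libraries. Of 55 members tested, 4 differed, all with the larger effect in VCaP, against 10.9% of 17323 genes. Members thus differed no more often than genes in general, and the 4 are given as single genes. They were HIST1H2BJ (3.56 ± 1.04 on the log2 scale, edgeR adjusted p = 0.0283), HIST2H2AC (3.40 ± 0.83, adjusted p = 0.00976), HIST1H2AE (2.01 ± 0.53, adjusted p = 0.0159) and HIST1H2BK (1.75 ± 0.43, adjusted p = 0.00923). HIST2H2AC and HIST1H2AE were named after their values were seen. In LNCaP, HIST1H2BJ was at 1.36 and 1.09 CPM in stripped serum and 1.35 and 1.11 CPM with androgen, and HIST2H2AC at 0.711 and 0.560 CPM and then 0.380 and 0.196 CPM, while in VCaP HIST2H2AC went from 0.488 and 0.943 CPM to 2.99 and 3.99 CPM. The difference for HIST1H1C was 1.37 ± 0.48 and did not pass (adjusted p = 0.0652). This count was 1 without VCaP ACP stripped replicate 1, 2 without VCaP ACP androgen replicate 2 or without LNCaP ACP stripped replicate 1, and 8 without VCaP ACP stripped replicate 2.

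Genes of DNA replication, from a list of 18, went in opposite directions in the 2 lines. In VCaP 12 of 18 rose and 0 fell with androgen (median 1.04), and in LNCaP 0 rose and 12 fell (median -1.05). Of all genes 17.5% and 7.73% passed in these comparisons, in either direction. RRM2, a subunit of the enzyme that makes deoxyribonucleotides, was at 35.7 and 83.1 CPM in VCaP stripped serum and 204 and 326 CPM with androgen, a log2 fold change of 2.16 ± 0.49 (edgeR adjusted p = 0.0164). TYMS, which makes thymidylate, fell in LNCaP from a mean of 60.1 CPM to 20.7 CPM (-1.56 ± 0.32, edgeR adjusted p = 0.0157). The androgen effects of the 2 lines differed for 16 of 18 genes of the list, against 10.9% of all genes. Members thus rose beside higher replication genes in VCaP, while in LNCaP the rise of HIST1H1C, HIST2H2BE, HIST1H2BC, HIST1H2BD and HIST1H4H stood beside lower ones.

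The rest of the histone supply was read from 3 further lists. Over all genes tested 17.5% passed in VCaP and 7.73% in LNCaP, in either direction, and a count near these shares says little about a list. Of 12 replacement histones, most of which can be made outside S phase from polyadenylated mRNA, 3 rose in VCaP with androgen and 2 fell in LNCaP. The centromere variant CENPA was the largest change in both (1.80 ± 0.35 and -1.94 ± 0.39). Of 8 histone chaperones, which carry histones to DNA, 1 rose in VCaP and 4 fell in LNCaP, with ASF1B the largest in each line (1.40 ± 0.28 and -1.44 ± 0.30). Among 15 genes of histone mRNA processing, SLBP rose in VCaP (0.74 ± 0.20, edgeR adjusted p = 0.0349), from 61.6 and 66.3 CPM to 90.1 and 123 CPM, and LSM11, a protein of the U7 particle, fell (-1.20 ± 0.32). In LNCaP the 1 call was a rise of ZCCHC6, a uridylating enzyme that acts in histone mRNA decay (0.86 ± 0.21), and SLBP was at 92.9 and 84.7 CPM and then 58.8 and 68.8 CPM. SLBP differed between the androgen effects of the 2 lines by 1.21 ± 0.23 (edgeR adjusted p = 0.00154).

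**Figure D5:**
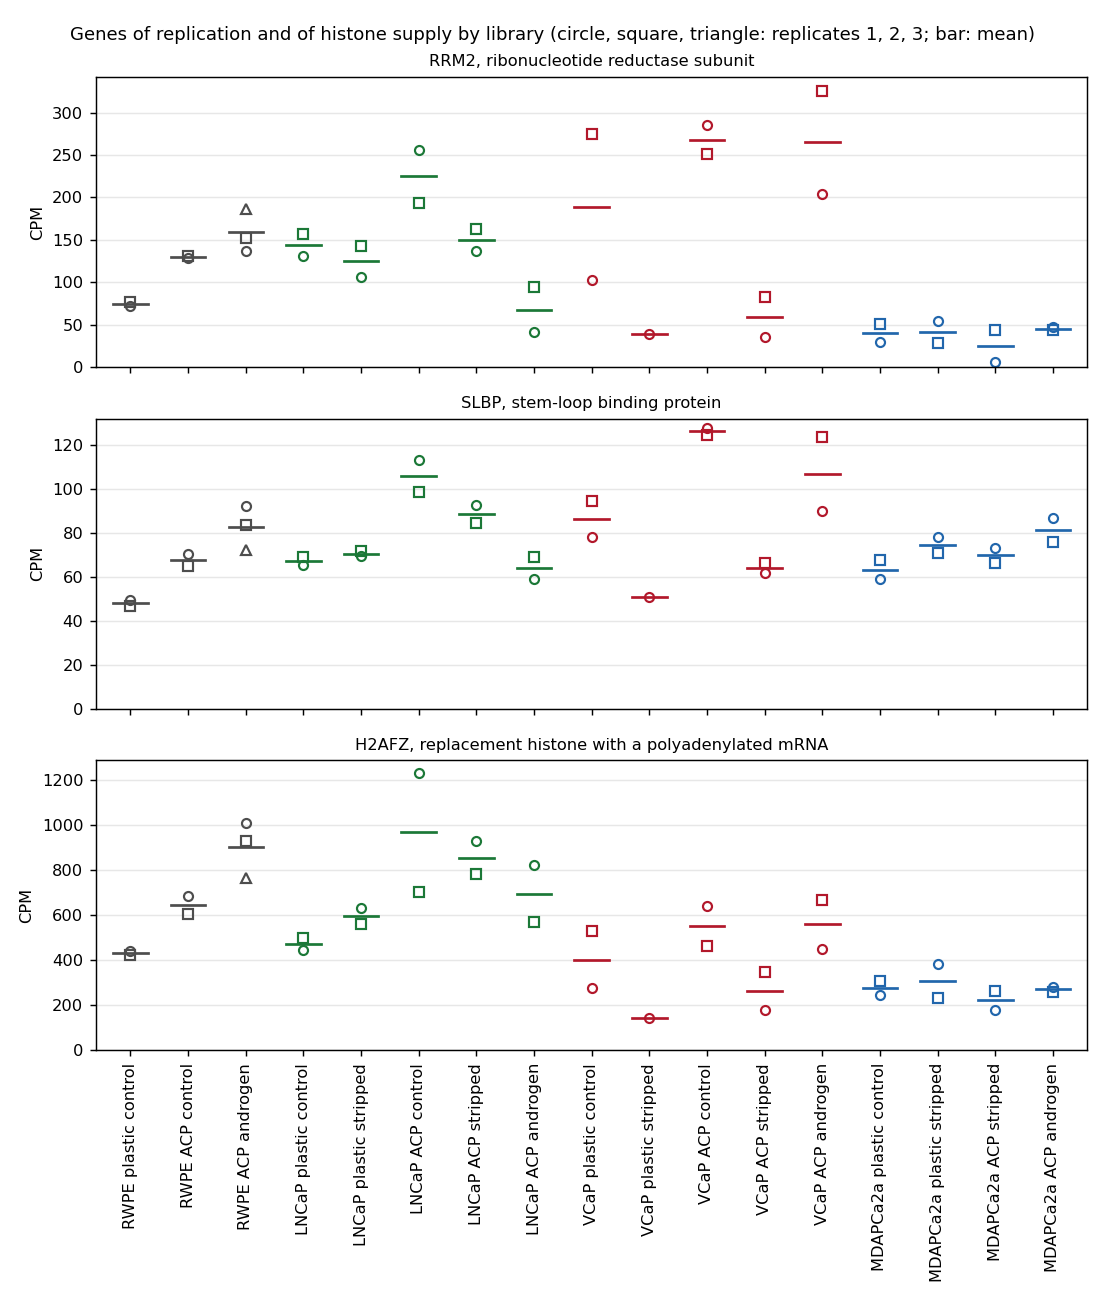
CPM on linear axes from 0 of RRM2 (top), SLBP (middle) and the replacement histone gene H2AFZ (bottom) in each library, by group. Points are libraries (circle, square and triangle for replicates 1, 2 and 3) and bars are group means. RRM2 is at 204 and 326 CPM with androgen in VCaP, and at 41.0 and 94.4 CPM with androgen in LNCaP.

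In MDAPCa2a no member of 20 tested passed with androgen on ACP, and 0% of 13626 genes did. At an unadjusted p below 0.05 there were 4 members, and DESeq2 called 0. The 0% of genes is at the adjusted threshold. The 4 have no share of all genes beside them and cannot be read as a result about the members. HIST1H1C was at 13.3 and 10.1 CPM in stripped serum and 7.79 and 9.80 CPM with androgen. HIST1H2BK was at 25.5 and 35.9 CPM and then 23.7 and 34.1 CPM, so these libraries overlapped, while those of HIST1H1C did not. RPPH1 was at 136 and 69.2 CPM in stripped serum and 10.1 and 14.0 CPM with androgen.

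RWPE had no stripped group on ACP, so its androgen group was set against ACP control medium, from which it differs in more than the androgen. Of 44 members tested 3 rose and 0 fell, against 19.1% of 14293 genes. HIST3H2A was at 43.7 and 35.6 CPM in control medium and at 162, 99.3 and 78.3 CPM in the androgen group (1.54 ± 0.29, edgeR adjusted p = 0.017). HIST1H2AC went from 33.0 and 28.1 CPM to 79.5, 48.5 and 49.1 CPM, and HIST1H1C from 57.3 and 52.5 CPM to 118, 65.6 and 121 CPM (0.97 ± 0.23 and 0.90 ± 0.24, edgeR adjusted p = 0.0224 and 0.0307). For each of the 3 genes the control and androgen libraries did not overlap. Replicate 1 of the androgen group, which had the most RPPH1, was the highest library for HIST3H2A and HIST1H2AC, and both passed without it, while HIST1H1C did not pass without it or in the fit of all lines. Leaving out replicate 1 or 2 of RWPE ACP control gave a count of 0, and leaving out androgen replicate 1 gave 6, of which 4 were lower.

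The surface comparison asks which members differ between ACP and plastic in the same medium. In RWPE control medium 3 of 44 members rose and 0 fell, against 4.16% of 14293 genes. HIST1H4C, an H4 gene, was at 0.610 and 0.683 CPM on plastic and 2.38 and 2.87 CPM on ACP (2.04 ± 0.38, edgeR adjusted p = 0.0197), and HIST1H2AE at 0.770 and 0.658 CPM and then 3.07 and 3.12 CPM (2.13 ± 0.48, adjusted p = 0.0371). HIST1H3F, named because the count is small, had 0 reads on plastic and 44 on ACP, at least 22.7-fold higher against a floor of 3 reads over the group. None of the polyadenylated 6 passed, with log2 differences between -0.47 and 0.11. RPPH1 moved with this comparison, from 0.212 and 0.354 CPM on plastic to 126 and 109 CPM on ACP, and so did the plastic control set of libraries. The count was 0 without each of the 4 libraries in turn.

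In LNCaP control medium 3 members rose on ACP and 1 fell among 35 tested, against 12.6% of 14656 genes. The part of the members that passed was thus near that of all genes. HIST1H1C was at 99.3 and 65.7 CPM on plastic and 179 and 138 CPM on ACP (1.05 ± 0.20, edgeR adjusted p = 0.013), and HIST1H2BK at 115 and 95.5 CPM and then 166 and 126 CPM (0.58 ± 0.17, adjusted p = 0.0474). HIST1H4C rose by 2.38 ± 0.70 to 2.22 and 0.402 CPM, from 0.317 and 0.221 CPM. The H2A gene HIST1H2AK was the 1 member that fell, from 2.92 and 2.27 CPM to 0.823 and 0.548 CPM (-1.81 ± 0.40, adjusted p = 0.019). HIST1H1C and HIST1H2AK did not pass in the fit of all lines (edgeR adjusted p = 0.0994 and 0.101). HIST1H2BK passed neither there nor with RLE size factors. RPPH1 was at 0.296 and 0.993 CPM on plastic and 114 and 7.01 CPM on ACP. The count was 0 without LNCaP plastic control replicate 1 or 2 or ACP control replicate 1, and it was 9 when replicate 2 of that group was left out.

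Stripped serum gave LNCaP a surface comparison free of the plastic controls. There HIST1H1C rose, from 119 and 97.2 CPM on plastic to 199 and 176 CPM on ACP (0.83 ± 0.20, edgeR adjusted p = 0.0361), and HIST1H2AK fell, from 3.05 and 1.58 CPM to 0.841 and 0.665 CPM (-1.59 ± 0.40, adjusted p = 0.0401). These were the 2 calls among 35 members, against 6.12% of genes, and both are in the direction seen in control medium. The count was 0 without plastic stripped replicate 1 or ACP stripped replicate 1 or 2. Without plastic stripped replicate 2 it was 2, both lower, with HIST1H2AK but not HIST1H1C among them, so HIST1H1C did not pass in any of these 4 fits. Neither gene passed in the fit of all lines (edgeR adjusted p = 0.231 for HIST1H1C and 0.226 for HIST1H2AK). A test of whether the surface effect differed between the media called 0 of 35 members and 0.307% of genes at the adjusted threshold. There were 2 members at an unadjusted p below 0.05 and 0 by DESeq2, with no share of all genes beside these counts.

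No member passed for the surface in VCaP or MDAPCa2a. Each share of genes below is of those past the adjusted edgeR threshold. The counts at an unadjusted p or by DESeq2 have no such share beside them, so they cannot be read as a result about the members. In VCaP control medium 0 of 44 passed, with 8 at an unadjusted p below 0.05 and 0 by DESeq2, against 0.0448% of 15614 genes, although all 44 log2 differences were positive (median 0.91, beside -0.02 over all genes). RPPH1 rose in the same comparison, from 1.52 and 1.98 CPM to 32.3 and 90.9 CPM, as did RMRP (5.73 ± 0.67, edgeR adjusted p = 0.0183), and their part in these differences was not tested. HIST1H1C was at 51.9 and 113 CPM on plastic and 146 and 123 CPM on ACP. In VCaP stripped serum, with 1 plastic library, the same test gave 0 of 44, with 1 member below 0.05 before adjustment and 0 by DESeq2, against 0% of genes. In MDAPCa2a stripped serum the numbers were 0 of 20, 3 and 0, against 0.00734% of genes, with 1 member passing without ACP stripped replicate 2. Whether the surface effect in control medium differed between LNCaP and RWPE was tested too, and 0 of 55 members passed, with 7 at an unadjusted p below 0.05 and 0 by DESeq2, against 0.156% of genes.

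HIST1H2AC passed in 2 of 5 comparisons of stripped serum, which lacks steroids, with control medium. In VCaP on plastic it was at 12.5 and 16.5 CPM in control medium and at 40.3 CPM in the 1 stripped library (1.52 ± 0.30, edgeR adjusted p = 0.0491), the 1 call among 44 members, against 0.89% of genes. On ACP in VCaP it was at 15.4 and 14.4 CPM and then 43.0 and 30.1 CPM, which did not pass (1.31 ± 0.26, adjusted p = 0.0514). In LNCaP on ACP it was at 41.3 and 34.8 CPM in control medium and 84.4 and 59.6 CPM in stripped serum (0.90 ± 0.23, adjusted p = 0.0437), the 1 call among 35 members, against 5.37% of genes. In LNCaP on plastic it was at 50.2 and 41.9 CPM and then 73.2 and 45.2 CPM, which overlapped and did not pass (adjusted p = 0.29), and in MDAPCa2a on plastic at 4.91 and 6.26 CPM and then 10.1 and 8.20 CPM (adjusted p = 0.137). The VCaP call rests on 1 stripped library, assumed to vary like the other groups, against the plastic controls that stand apart. It no longer passed when plastic control replicate 1 or 2 was left out, with RLE size factors or with a replicate block (edgeR adjusted p = 0.0771). On ACP in LNCaP it no longer passed without each of the 4 libraries, and without LNCaP ACP control replicate 2 the 2 members that passed were other ones, both lower.

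On plastic, stripped serum raised 2 of 35 members in LNCaP, against 9.45% of genes. HIST1H2AE went from 4.16 and 2.98 CPM to 9.03 and 6.17 CPM (1.14 ± 0.30, edgeR adjusted p = 0.0354), and HIST1H4J, named because the count is small, from 8 reads to 26 reads over the 2 libraries. In this comparison the count was 0 without plastic control replicate 1 or 2 or plastic stripped replicate 1, and 1 without plastic stripped replicate 2. RPPH1 was at 7.26 and 16.9 CPM in the stripped libraries against 0.296 and 0.993 CPM in the controls, which did not pass (adjusted p = 0.0729). In MDAPCa2a on plastic 0 of 20 members passed, against 1.58% of genes. There were 8 at an unadjusted p below 0.05 and 2 by DESeq2. These counts have no share of all genes beside them and cannot be read as a result about the members. HIST1H1C had the lowest adjusted p there, 0.0555, at 7.02 and 8.44 CPM in control medium and 25.0 and 14.3 CPM in stripped serum.

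In VCaP on ACP none of 44 members passed between stripped serum and control medium, against 0.82% of genes. At an unadjusted p below 0.05 there were 18 members, and DESeq2 called 7. No share of all genes is given beside these counts, so they cannot be read as a result about the members. Members outside the polyadenylated 6 had a median log2 difference of -1.48 over the 38 tested, beside 0.08 over all genes. The polyadenylated 6 had a median of 0.60, but they did not move together. HIST1H1C went from 146 and 123 CPM in control medium to 61.5 and 118 CPM in stripped serum. HIST1H2BK went from 112 and 88.9 CPM to 67.2 and 72.0 CPM, while HIST1H2AC and HIST1H2BD were higher in both stripped libraries. The sum of the 6 was 291 and 250 CPM and then 206 and 272 CPM, which overlapped. HIST2H2BE was at 8.74 and 13.0 CPM in control medium and 18.6 and 33.7 CPM in stripped serum, and HIST2H2AC, its head to head neighbour, at 2.77 and 3.37 CPM and then 0.488 and 0.943 CPM (adjusted p = 0.0893 and 0.0733). RPPH1 was at 32.3 and 90.9 CPM in control medium and 17.3 and 18.1 CPM in stripped serum (adjusted p = 0.0663), and its part in the member values was not tested. Replication genes fell in 10 of 18 cases, led by TYMS (-2.09 ± 0.33, edgeR adjusted p = 0.0328). This stripped group is also the reference of the androgen comparison in VCaP, so the 2 comparisons share libraries.

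Between lines, in plastic control medium, the members were set against RWPE in 1 fit of all libraries. Over all genes the share that passed was high in each, so a call by itself says little here. In LNCaP 14 of 55 members were higher and 4 lower, against 57.4% of 17323 genes. HIST1H3H was at 13.5 ± 2.1 CPM in LNCaP and 1.10 ± 0.51 CPM in RWPE (3.60 ± 0.57), and the H2B gene HIST1H2BL at a mean of 2.19 ± 0.16 CPM against 0.117 ± 0.022 CPM (SD, n = 2 libraries each; 4.18 ± 0.77). HIST2H2BA, which has no coding transcript annotated, was lower, at 0.0432 ± 0.0013 CPM against 1.38 ± 0.045 CPM. HIST1H1D had 1 read against 95, a ratio of 0.00877 (95% interval 0.00022 to 0.0501). HIST1H2AK, at 2.92 and 2.27 CPM against 0.106 and 0.379 CPM, and HIST3H2A, at 59.5 and 54.6 CPM against 26.2 and 31.9 CPM, were higher. Of the polyadenylated 6, 1 passed, HIST1H2AC, at 50.2 and 41.9 CPM against 29.5 and 28.1 CPM.

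VCaP against RWPE gave 15 higher and 12 lower of 55, against 62.4% of genes. Of the polyadenylated 6, 4 were lower: HIST2H2BE (-2.62 ± 0.30), HIST1H2BD (-1.85 ± 0.31), HIST1H2BC (-1.38 ± 0.35) and HIST1H2AC (-0.99 ± 0.26). HIST1H2BK did not pass, and neither did HIST1H1C, at 51.9 and 113 CPM in VCaP and 54.1 and 52.9 CPM in RWPE. HIST2H2BA (-3.11 ± 0.84), HIST1H1D (-2.24 ± 0.79) and HIST3H2A (-1.38 ± 0.37) were lower too. HIST2H2BE was at 11.3 and 10.1 CPM in VCaP and 69.2 and 62.3 CPM in RWPE. Higher members included HIST1H2BL (3.19 ± 0.77), HIST1H2AE (2.25 ± 0.42) and HIST1H2BH (2.09 ± 0.51). Of 18 replication genes 8 were higher and 3 lower, near the share of all genes that passed. Without RWPE plastic control replicate 1 the count was 17 and without VCaP plastic control replicate 2 it was 18, and in the LNCaP comparison the count was 11 without RWPE plastic control replicate 1 and 12 without LNCaP plastic control replicate 1.

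In MDAPCa2a against RWPE 1 member was higher and 15 were lower of 55, against 56.7% of genes in either direction and 28.4% lower. The part of the members that was lower was thus near that of all genes. All of the polyadenylated 6 were lower, by -2.14 ± 0.29 (HIST2H2BE) to -3.45 ± 0.40 (HIST1H2BC) on the log2 scale. HIST1H1C was at 7.02 and 8.44 CPM against 54.1 and 52.9 CPM in RWPE. HIST2H2BA (-5.38 ± 1.06) and HIST1H1D (-4.70 ± 1.02) were lower as well. By family 10 of 18 H2B members were lower, HIST2H2BA without a coding transcript among them, and 0 of 9 H4 members passed. HIST3H2A was the 1 member that was higher, at 49.7 and 61.2 CPM against 26.2 and 31.9 CPM (0.93 ± 0.36, edgeR adjusted p = 0.0312), which no longer passed when either RWPE library or replicate 2 of MDAPCa2a was left out. Replication genes were lower in 11 of 18 cases and higher in 1, with MCM2, a helicase subunit, at 29.6 and 37.6 CPM against 247 and 245 CPM. The 3 comparisons of lines share the RWPE libraries.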

How the data were processed

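Values are whole-number read counts per gene from the authors' deposited table, with 15.4 to 44.8 M counts per library. The submitters' processing notes name STAR, HTSeq and the build hg19; for versions, strand use and reads that map to several genes, the sources used here say nothing. In an RWPE plastic control library 16 counts in 12 genes look like spreadsheet dates (no member; at most 0.996% of a library total) and were kept.

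Genes were tested with edgeR 4.0.16 (R 4.3.3; TMM, filterByExpr with a minimum count of 10, quasi-likelihood F test, Benjamini-Hochberg over all genes tested, threshold 0.05), within each line. Comparisons of lines and the difference between androgen effects used 1 fit of all 34 libraries. CPM used TMM library sizes over all libraries, and an SE is the log2 fold change over the root of F. Intervals (95%) and the floor of 3 reads per group cover counting error only. The fits were tested on simulated data. Alternatives were RLE size factors, no count filter, DESeq2 1.42.0, a replicate block, a fit of all lines and leaving out each library.

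Members, gene lists and tests were chosen with earlier results of these data known. Named were the 6 members with known polyadenylated transcripts, the 2 of highest mean CPM in each family, per comparison up to 3 largest rises and falls that passed, reached a mean of 1 CPM and did not overlap, per interaction the largest rise and fall, likewise for each other list, and RPPH1, RMRP and SLBP. Members outside this rule are said to be, or were chosen after their values were seen. Same-numbered replicates were not used as pairs, since the labels give them only a number. Sequences come from GRCh38 with GENCODE 29 and from RefSeq GRCh38.p14; no coordinate was taken from the deposited files.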

Additional observations from a re-analysis of the deposited data

Results flagged for a closer look

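The androgen effect on ACP differed between VCaP and LNCaP for 4 members of 55 tested, by the test of the difference itself. This is a smaller share than the 10.9% of all genes. The count was 1 to 8 when each library was left out in turn. The difference, VCaP minus LNCaP on the log2 scale, was 3.56 for HIST1H2BJ, 3.40 for HIST2H2AC, 2.01 for HIST1H2AE and 1.75 for HIST1H2BK. Groups held 1 to 3 libraries, so no library was tested for standing apart from its group.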

How the results depend on the processing

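Counts of members that passed moved by more than 1.5 times in these cases; the cause was not tested. For ACP against plastic in control medium, RWPE (3 members) gave 10 with no count filter, 8 by DESeq2, 7 in the fit of all lines and 0 without each library, and LNCaP (4) gave 1 in the fit of all lines and 0 to 9 without each library. In stripped serum LNCaP (2) gave 5 with no count filter, 4 by DESeq2, 0 in the fit of all lines and 0 to 2 without each library, and MDAPCa2a (0) gave 0 to 1 without each library. For stripped serum against control on plastic, LNCaP (2) gave 1 with RLE size factors, with no count filter and by DESeq2, 0 in the fit of all lines and 0 to 1 without each library. VCaP (1) gave 0 with RLE size factors, 4 with no count filter, 3 by DESeq2 and in the fit of all lines, and 0 without each plastic control library, and MDAPCa2a (0) gave 3, 2 and 1 with no count filter, by DESeq2 and in the fit of all lines. On ACP, LNCaP (1) gave 3 with no count filter, 2 by DESeq2 and 0 to 2 without each library, and VCaP (0) gave 10, 7 and 6 with no count filter, by DESeq2 and in the fit of all lines, and 0 to 1 without each library. Androgen gave LNCaP (5) 3 in the fit of all lines and 0 to 4 without each library, VCaP (18) 2 to 17 and RWPE (3) 0 to 6. Against RWPE, LNCaP (18) gave 11 to 16, and VCaP (27) 17 to 29. The difference of androgen effects (4) gave 8 with no count filter and 1 to 8 without each library, and surface by serum in LNCaP (0) gave 1 with no count filter and 0 to 1. The other counts, 123 of 193, stayed within 1.5 times.

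With a replicate block the count was 10 for RWPE ACP against plastic, 4 for LNCaP ACP against plastic in stripped serum, 0 for VCaP stripped against control on plastic, 2 for LNCaP and 1 for VCaP stripped against control on ACP. Same-numbered libraries had correlations of deviations from -0.41 to 0.60, above 0.1 in 4 of 16 comparisons, so they share only a number.

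Of 888 values recomputed for the 104 member results that passed, 680 still passed, 208 did not and 0 reversed; 40 results passed under every alternative run. Of the 39 calls within lines 2 passed without each library, against 39 of 61 between lines.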
